A study of Drosophila melanogaster with 2 samples.

Results

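CG8814, CG8132 and CG1888 are 3 protein-coding genes of Drosophila melanogaster, each with 4 summits of the conservative peak list in a window of the gene body and 2 kb on each side. The thresholded list of the series held 3 summits in each of these windows. The genes were chosen by the number of peaks in these same lists, so their peak counts and signals describe how they were picked and carry no test. They are 3 of the 13968 protein-coding genes on the chromosome arms, and their windows hold 12 of the 2132 conservative summits there. The gene models behind the windows are those of an Ensembl annotation on the coordinates of build dm6. CG8814 lies on 2L from 2874890 to 2877168 on the plus strand, CG8132 on 3R from 9401495 to 9402618 on the plus strand, and CG1888 on 2R from 9541947 to 9548135 on the minus strand.

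Their working description, compact genes with dense peaks, held in part. CG8132 spans 1124 bp, and 23.3% of all protein-coding genes were as short or shorter. CG8814 spans 2279 bp, close to the median of 2164.5 bp, with 52.1% as short or shorter, and CG1888 spans 6189 bp, with 79.3%. By this measure CG8132 alone was shorter than the median gene. The peaks were dense in the windows more than in the genes: the gene body held 2 conservative summits in CG1888, 1 in CG8132 and 0 in CG8814. Over all protein-coding genes, 6.31% had at least 1 conservative summit in the body and 1.43% had at least 2.

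The peaks come from chromatin immunoprecipitation followed by sequencing (ChIP-seq) on whole fly embryos aged 0 to 8 hours. The embryos came from 1 transgenic line that carries CG8765, a gene annotated as coding for an uncharacterized protein, fused to enhanced green fluorescent protein (eGFP), and chromatin was precipitated through the GFP tag. There were 2 biological replicates of this 1 group, and no second genotype, age or treatment to compare with. The whole embryos mix all cell types of these ages, and the control experiment was not used here.

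In ChIP-seq, fragments that were bound by the tagged protein, or that lay close to it, pile up over a place in the genome, and the summit is the position of the highest pile. A transcription start site (TSS) is where a transcript begins, and the promoter lies around it. The fly genome is compact, and many of its genes sit head to head, as divergent pairs whose promoters share a short gap, or in tandem, with the end of a gene close to the start of the next. Peaks of factors that bind promoters can therefore stand close together where genes are packed tightly, and a peak in a shared gap lies near the promoters on both sides. Whether this applies to CG8765 was not tested. The RefSeq annotation calls the products of all 3 genes uncharacterized proteins, so none is given a role here.

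At least 1 conservative summit fell in the window of 19.8% of the 13968 genes, and 38 genes, 0.272%, had at least 4. Among the 7774 genes that span at most 2500 bp, CG8814 and CG8132 alone had 4, which makes 0.0257%, and none had more. Per length, the window of CG8132 held 0.781 conservative summits per kb, the highest value of any protein-coding gene, but 2 of its 4 intervals overlap. CG8814 came in place 3 with 0.637 per kb and CG1888 in place 71 with 0.393 per kb. The genes in places 2, 4 and 5 were CG34117, Irbp18 and RpL34b with 0.669, 0.633 and 0.601 per kb. CG34117 and RpL34b are neighbours of CG8132, and each shares 3 conservative summits with its window, so these places do not count separate clusters of peaks. With overlapping intervals merged in every window, an alternative chosen after seeing the data, CG8132 held 0.585 per kb and came in place 2, CG8814 came in place 1 with 0.637 and CG1888 in place 47 with 0.393. CG8814 was then the only gene of at most 2500 bp with 4 peaks.

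**Figure D1:**
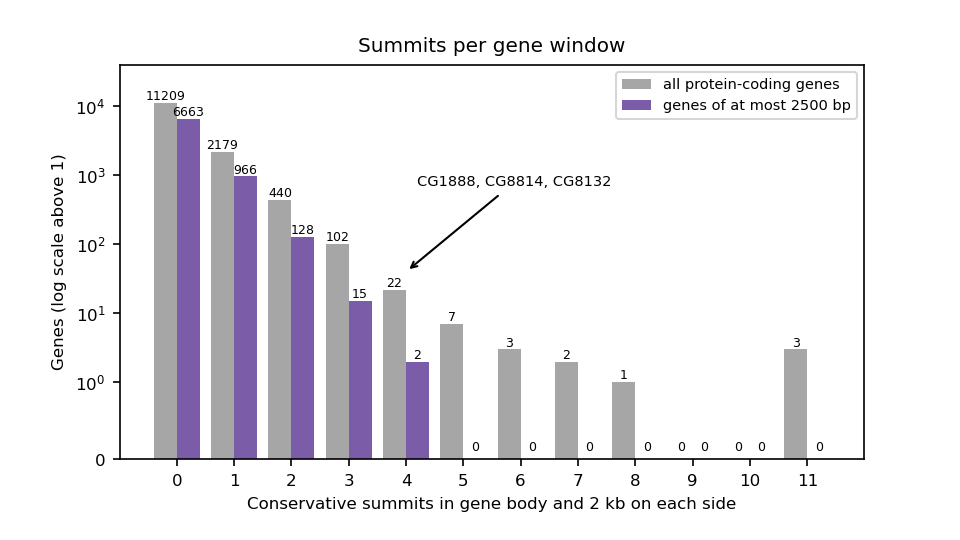
Number of protein-coding genes (log scale above 1) by the number of conservative summits in the gene body and 2 kb on each side, for all genes and for genes of at most 2500 bp. Of all genes 11209 had 0 summits, and CG8814 and CG8132 are the 2 short genes with 4.

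The ranked list also holds the many weak candidate peaks that the threshold removes. It kept the order of the 3 genes by summits per kb but not their standing among all genes. It held 11 summits in the window of CG8132, 2.15 per kb, and 0.759% of all genes were as dense or denser. CG8814 had 9 ranked summits, 1.43 per kb, and CG1888 had 11, 1.08 per kb, below the median of 1.26 per kb over all genes. By this count 67.6% of all genes were as dense as CG1888 or denser. CG8132 alone of the 3 was thus far from the median in both lists.

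The 4 summits of CG8814 all lay outside the gene. Its window is crowded: 5 genes overlap it and all 5 start in it, against a median of 3 genes overlapping a window. From left to right they are Ifrd1, annotated as interferon-related developmental regulator 1, CG8814 itself, Prx6a, the antioxidant enzyme peroxiredoxin 6a, Sbat, annotated as sabbat, and RabGGTb, annotated as the beta subunit of the enzyme that attaches geranylgeranyl lipids to Rab proteins. Ifrd1 and CG8814 start head to head across 400 bp, Prx6a and Sbat start head to head across 111 bp, and the end of Sbat lies 110 bp before the start of RabGGTb. CG8814 and Prx6a overlap at their ends.

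The gaps beside these starts are shown because the first and the last hold a summit and the middle one ends just before a summit. They are printed on the plus strand of the RefSeq sequence of Release 6, the same build as dm6: chr2L:2874590-2874889, the 300 bp of the Ifrd1–CG8814 gap nearest CG8814, chr2L:2878233-2878343 and chr2L:2879002-2879111. Capitals mark matches, on either strand, to 8 short motifs: TATCGATA (the DNA replication-related element bound by DREF), CGATA (the core bound by the insulator protein BEAF), GGTCACAC and CAGCNCT (core-promoter elements), TATAAA (the TATA box), TAATTA (the core bound by many homeodomain proteins), GAGAG (bound by GAGA factor) and CACCTG (an E-box). CGATA is also part of TATCGATA, and touching or overlapping matches run together in capitals.
Ifrd1–CG8814: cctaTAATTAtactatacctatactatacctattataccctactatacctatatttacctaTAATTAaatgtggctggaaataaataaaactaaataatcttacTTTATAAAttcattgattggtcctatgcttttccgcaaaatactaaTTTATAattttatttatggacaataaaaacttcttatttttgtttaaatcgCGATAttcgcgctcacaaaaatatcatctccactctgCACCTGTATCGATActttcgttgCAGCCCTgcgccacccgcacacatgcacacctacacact
Prx6a–Sbat: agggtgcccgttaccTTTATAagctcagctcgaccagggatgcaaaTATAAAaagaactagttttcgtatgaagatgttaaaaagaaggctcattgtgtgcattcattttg
Sbat–RabGGTb: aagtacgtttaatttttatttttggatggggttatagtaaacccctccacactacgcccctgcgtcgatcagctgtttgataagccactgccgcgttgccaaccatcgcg

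The Ifrd1–CG8814 gap held the peak next to CG8814, with its summit at base 223 of the printed stretch, 78 bp upstream of the TSS of CG8814 and 323 bp from that of Ifrd1. The TATCGATA match starts 22 bp to the right of the summit, with CACCTG directly before it at 16 bp and a further CGATA match 21 bp to the left. The CAGCNCT match starts 39 bp to the right. The signal of the peak, the authors' own value in the deposited list, was 86.0, place 1419 of 2132 from the strongest. Replicate 1 had a signal of 46.1 there, place 1415 of the 106449 peaks in its ranked list, and replicate 2 had 33.9, place 3525 of 125328. A peak has the same signal in a source's ranked and thresholded lists, but the 2 replicates and the series were each called from their own alignments, so places and not signals are compared between them. The peak passed the threshold of replicate 1 and not that of replicate 2. The replicates' summits lay 86 bp apart, both inside the gap.

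The peak at Sbat was the strongest of the 4, with a signal of 102.0, place 1105, just below the list's median of 104.7. Its summit lay 23 bp inside the annotated 5′ UTR of Sbat and 135 bp from the start of Prx6a. Replicate 1 had 42.5 (place 1630) with its summit inside the 111 bp gap, and replicate 2 had 50.4 (place 1420) with its summit 12 bp inside Sbat. The peak at RabGGTb had a signal of 86.1, place 1416, and its summit lay 99 bp upstream of that gene's TSS, inside the Sbat–RabGGTb gap. Replicate 1 had 36.3 (place 2150) and replicate 2 had 66.6 (place 910), and it was the only peak of the window in the thresholded list of replicate 2. Its replicate summits were the farthest apart of any in the 3 windows, 143 bp, with that of replicate 1 in a coding exon of Sbat and that of replicate 2 in the gap.

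The fourth peak was the weakest and the only one of the window far from a start. Its summit lay in an intron of Ifrd1, 979 bp downstream of the Ifrd1 TSS, with a signal of 74.7, place 1680. Replicate 1 had 27.4 (place 4073) and replicate 2 had 42.8 (place 1932), and neither replicate's thresholded list held it. The replicates' summits were 4 bp apart. The peak is also missing from the thresholded list of the series, where the matching ranked list gives it a score of 543, while the ranked list behind the conservative list gives it 879. The score runs to 1000 and is set from the irreproducible discovery rate, a measure of how well a peak's rank repeats between 2 sets of peaks, and the lowest score kept in a thresholded list was 830.

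CG8132 starts in an even tighter block. Its window of 5124 bp is overlapped by 7 genes, 6 of which start in it: CG34117, RpL34b, a protein of the large ribosomal subunit, CG8132, CG9356, and BBIP1, annotated as BBSome interacting protein 1, which shares its start with CG8135. Or85f, an odorant receptor, only ends there. RpL34b and CG8132 start head to head across 268 bp, CG9356 starts head to head with BBIP1 and CG8135 across 115 bp, and the end of RpL34b lies 183 bp before the start of CG34117 in the direction of their transcription.

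Each of these 3 gaps held 1 conservative summit. They are printed on the plus strand as above, from chr3R:9400054-9400236, chr3R:9401227-9401494 and chr3R:9404270-9404384, with the same motifs in capitals. A match that crosses the edge of a gap is not marked, as with CGATA at the right end of the RpL34b–CG8132 gap.
CG34117–RpL34b: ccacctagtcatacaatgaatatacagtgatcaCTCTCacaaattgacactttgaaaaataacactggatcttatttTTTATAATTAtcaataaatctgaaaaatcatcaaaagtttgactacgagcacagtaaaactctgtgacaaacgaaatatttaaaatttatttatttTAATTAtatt
RpL34b–CG8132: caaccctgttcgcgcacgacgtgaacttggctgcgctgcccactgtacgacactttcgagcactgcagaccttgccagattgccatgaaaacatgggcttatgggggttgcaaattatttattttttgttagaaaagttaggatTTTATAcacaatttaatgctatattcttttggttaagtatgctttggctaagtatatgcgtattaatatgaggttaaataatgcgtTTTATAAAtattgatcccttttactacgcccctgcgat
CG9356–BBIP1/CG8135: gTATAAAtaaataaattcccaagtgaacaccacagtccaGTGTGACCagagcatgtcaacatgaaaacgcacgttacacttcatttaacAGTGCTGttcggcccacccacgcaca

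The RpL34b–CG8132 gap held the strongest of the peaks, with a signal of 218.8, place 315 of 2132. Its summit, base 86 of the gap, lay 86 bp upstream of the outermost TSS of RpL34b and 183 bp upstream of the TSS of CG8132. Replicate 1 had a signal of 108 (place 349) and replicate 2 had 112 (place 363), and both replicates' thresholded lists held the peak. Their summits were 48 bp apart, both in the gap. A second conservative interval overlaps this one by 124 bp, with its summit 200 bp away and 17 bp inside the 5′ UTR of CG8132. Its signal was 9.74, place 2099, while its score in the conservative list was 1000, the same as that of the strong peak. No separate peak of either replicate matches it: the replicate peaks it overlaps are those of the strong peak beside it. In the ranked list behind the series' thresholded list its score was 131, and the thresholded list does not hold its interval. Each of the 3 windows holds 1 such interval, and of the 2132 conservative intervals 169 or 7.93% are likewise missing with these exact ends from that list. With overlapping intervals merged, the window of CG8132 held 3 peaks.

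The peak between RpL34b and CG34117 had a signal of 130.9, place 754, with its summit 73 bp upstream of CG34117. Replicate 1 had 75.9 (place 628) and replicate 2 had 59.6 (place 1090), with summits 3 bp apart, and both thresholded lists held it. The peak between CG9356 and BBIP1 had a signal of 79.6, place 1558, with its summit 41 bp upstream of the start that BBIP1 and CG8135 share and 75 bp upstream of CG9356. Replicate 1 had 44.0 (place 1547) and replicate 2 had 35.3 (place 3132), and only replicate 1 passed its threshold. The replicates' summits were 1 bp apart, the closest in this window.

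Over the 8 summits of these 2 genes, windows of 100 bp on each side held TATAAA at 7, where 32.3% of all conservative summits and 26.9% of 19275 annotated TSSs held it. CGATA was near 2 (28.9% of summits, 37.1% of TSSs), TATCGATA near 1 (4.13% and 6.44%) and GGTCACAC near 1 (1.92% and 5.68%). CAGCNCT was near 2 (11.1% and 12.1%), TAATTA near 2 (15.1% and 9.39%), GAGAG near 2 (25.7% and 25%) and CACCTG near 1 (6.71% and 6.66%). The summit before RabGGTb had a match to none of the 8. The GC content of the same windows ran from 29.9% to 45.8%, around the median of 36.8% over all conservative summits, and its relation to the A- and T-rich TATAAA was not tested. These matches describe the letters in the windows and are not evidence of binding by any of the factors.

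A run of 14 bases, actacgcccctgcg, stands in both the Sbat–RabGGTb gap and the RpL34b–CG8132 gap on the plus strand. It was picked out after the sequences were read. In the first it starts 60 bp upstream of the TSS of RabGGTb, and in the second 16 bp upstream of that of CG8132, so that it points in the direction of transcription of the gene next to it in both. The run occurs 3 times on the arms. The third copy, on 3L from 8326209 to 8326222, starts 350 bp downstream of the TSS of CG34461 and has no conservative peak over it. In the conservative list, the copy beside CG8132 lies outside the strong interval of its gap. There it lies only under the overlapping interval with a signal of 9.74, which no separate replicate peak matches. The strong peak of replicate 2 in this gap reaches 9401493 and covers the copy, whereas that of replicate 1 ends at 9401437.

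CG1888 differs from the other genes in layout. Only brp, which encodes the presynaptic active-zone protein bruchpilot, reaches into its window besides CG1888 itself, and brp starts outside it. CG1888 has 4 transcripts and 2 TSSs, at 9548135 and, further in, at 9546958. It is the nearest gene by TSS to all 4 of its summits, where CG8814 and CG8132 are each the nearest to 1 of their own.

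The strongest peak of the 3 windows lay inside CG1888, on 2R from 9547050 to 9547316. Its signal was 962, place 9 of 2132, which puts it in the top 0.422% of the conservative list. Its summit at 9547184 lay in the annotated 5′ UTR, 226 bp upstream of the inner TSS and 951 bp downstream of the outer one. Replicate 1 had 519, place 7 of 106449, and replicate 2 had 448, place 21 of 125328, and the summit was the same base in both. No other peak of the windows was as strong in any list.

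The second peak of the gene lay in the annotated 3′ UTR, with its summit 2705 bp downstream of the inner TSS. It had a signal of 219.3, place 313, close to that of the RpL34b–CG8132 peak, although no annotated TSS lies within 500 bp. Replicate 1 had 66.8 (place 789) and replicate 2 had 156.3 (place 195), with summits 14 bp apart, and both thresholded lists held it. In replicate 2 alone, a further peak of the 3′ UTR at 9544979 passed the threshold, with a signal of 49.5, place 1330 of the 1671 peaks in that list.

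The other peaks of CG1888 lay upstream of the gene, in a gap of 4708 bp before the next annotated gene. A summit 116 bp upstream of the outer TSS had a signal of 86.3, place 1405. Replicate 1 had 29.5 (place 3270, under its threshold) and replicate 2 had 53.0 (place 1316, above its threshold), with summits 32 bp apart. The peak 1782 bp upstream was weak, with a signal of 45.8, place 2049. Replicate 1 had 35.1 (place 2265) and the ranked list of replicate 2 had no peak there at all, although the conservative list gives the peak a score of 945. The ranked list behind the series' thresholded list gives it 487, and that thresholded list does not hold it.

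**Figure D2:**
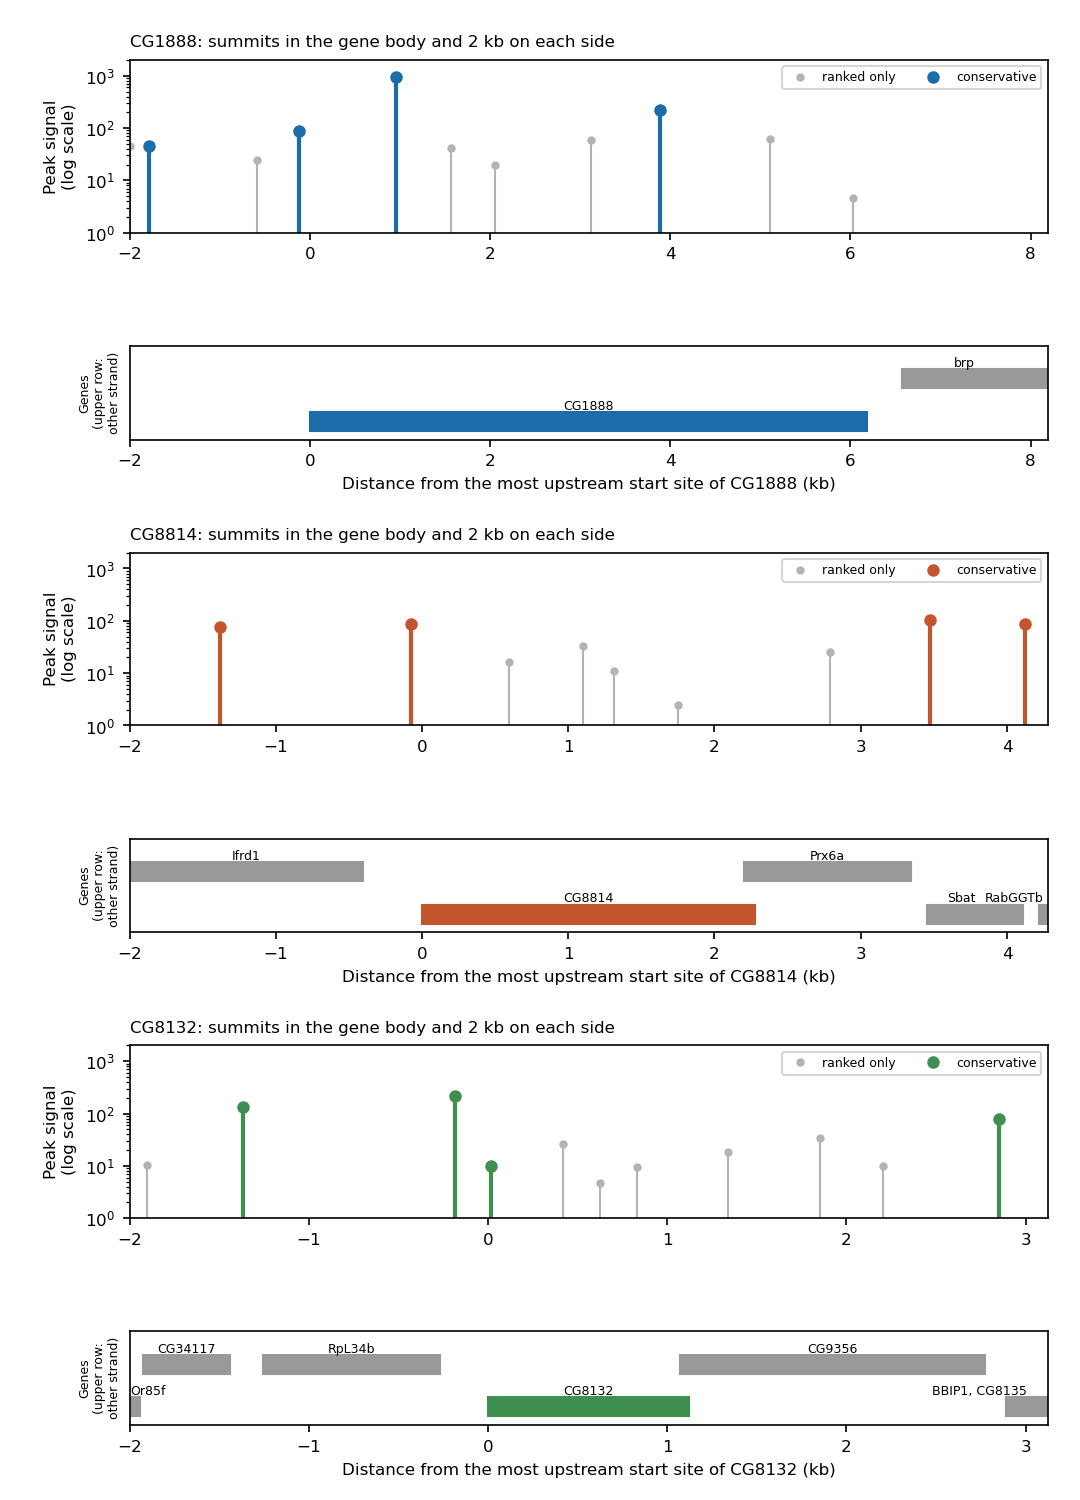
Peak signal (log scale) of each summit of the series' ranked list by its distance in kb from the most upstream TSS of each gene, with conservative summits in colour, and the genes of the window below (lower row, the strand of the named gene; upper row, the other strand). In CG8132 all 4 conservative summits and in CG8814 3 of 4 stand close to the start of a gene, the fourth of CG8814 stands in an intron of Ifrd1, and the highest in CG1888, with a signal of 962, stands inside the gene.

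Measured to the nearest TSS of any gene, the median distance of the 4 summits was 57 bp in CG8132, 88.5 bp in CG8814 and 1004 bp in CG1888. All 4 summits lay within 500 bp of a TSS in CG8132, 3 of 4 did in CG8814 and 2 of 4 in CG1888, where 53.9% of all conservative summits did. Read from the genes, all 6 genes that start in the window of CG8132 and all 5 in that of CG8814 had a conservative summit within 500 bp of a TSS, in windows that were picked for their peaks, where 10.5% of all protein-coding genes had one. Summits near the starts of more than 1 gene were counted next: 3 of 4 in CG8132, 3 of 4 in CG8814 and 0 of 4 in CG1888 had TSSs of at least 2 genes within 500 bp, where 24.2% of all conservative summits did.

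Gaps of at most 500 bp between genes, a description chosen after the values were seen, held 3 of the 4 summits in CG8132, 2 of 4 in CG8814 and 0 of 4 in CG1888. Of all conservative summits 17.3% lay in such a gap, and the 6321 gaps, with a median of 197 bp, cover 0.968% of the length of the arms. Of all divergent gaps of that size 14.3% held a conservative summit, and of all tandem gaps 3.06% did. In the windows of CG8814 and CG8132, 3 of 4 divergent and 2 of 2 tandem gaps did, in windows that were chosen for their many peaks.

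**Figure D3:**
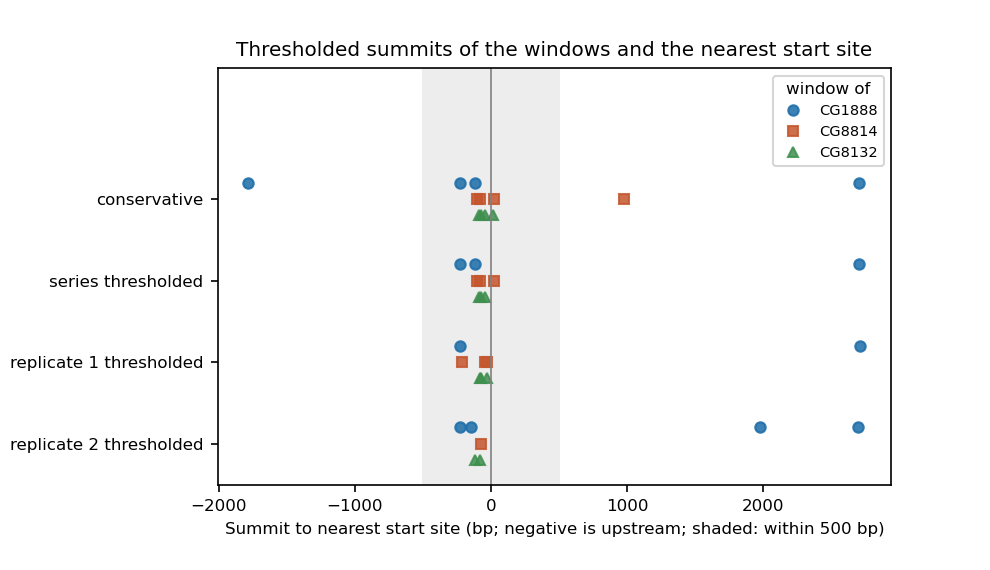
Distance in bp from each thresholded summit in the windows to the nearest TSS (negative is upstream; shaded, within 500 bp), by peak list and gene. The summits of CG8132 lie in the shaded band in all 4 lists, and those of CG1888 reach 2705 bp downstream in the conservative list.

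The spacing of neighbouring summits varied as much within a window as between the genes. It was 1302, 3555 and 646 bp in CG8814, 1186, 200 and 2832 bp in CG8132, and 2931, 1067 and 1666 bp in CG1888, each from left to right. The widest space in CG8814 and in CG8132 spans most or all of the gene itself. Of the 12 summits 10 had another within 2 kb, where 25.2% of all conservative summits did. The median distance to the nearest summit over the whole list was 8390 bp. Close spacing follows from the choice of windows with many peaks, so these values carry no comparison.

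Beyond the windows, the next conservative summits lay 18830 and 99872 bp from the ends of CG8814, beside RpS21, a ribosomal protein gene, and CG3165. Those beside CG8132 were 59645 and 32381 bp away. Over all conservative summits, the quartiles of the distance to the nearest other summit were 1968 and 23454 bp. Beside CG1888 the next summit on 1 side was 95977 bp away, but on the other side a peak with a signal of 595, place 32, lay 4543 bp from the gene, 166 bp upstream of the TSS of lncRNA:CR43651.

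The strongest ranked peak that stayed outside the conservative list had a signal of 62.5 and a score of 646 in CG1888, more signal than the weakest conservative peak there (45.8). In CG8814 it had 33.3 with a score of 153, and in CG8132 34.9 with a score of 381. The last is again stronger than the weakest conservative peak of its window (9.74). Signal alone thus did not set which peaks of CG1888 and CG8132 were kept, whereas in CG8814 the 4 conservative signals, 74.7 to 102.0, all lay above the 5 others, 2.48 to 33.3.

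Across the replicates, 9 of the 12 conservative intervals overlapped a thresholded peak of replicate 1 and 7 overlapped that of replicate 2, with the interval at the start of CG8132 counted through the strong peak beside it. Of the whole conservative list, 67.5% overlapped a thresholded peak of replicate 1 and 61.4% that of replicate 2. Both replicates held 6 of 12, and neither held 2, where 46.2% and 17.3% of the whole conservative list did. By gene, both replicates held 3 of 4 intervals in CG8132, 2 of 4 in CG1888 and 1 of 4 in CG8814. The strongest peak was not the same in the replicates of CG8814, where Ifrd1–CG8814 came first in replicate 1 and RabGGTb in replicate 2. In CG1888 and CG8132 the same peak came first in both.

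**Figure D4:**
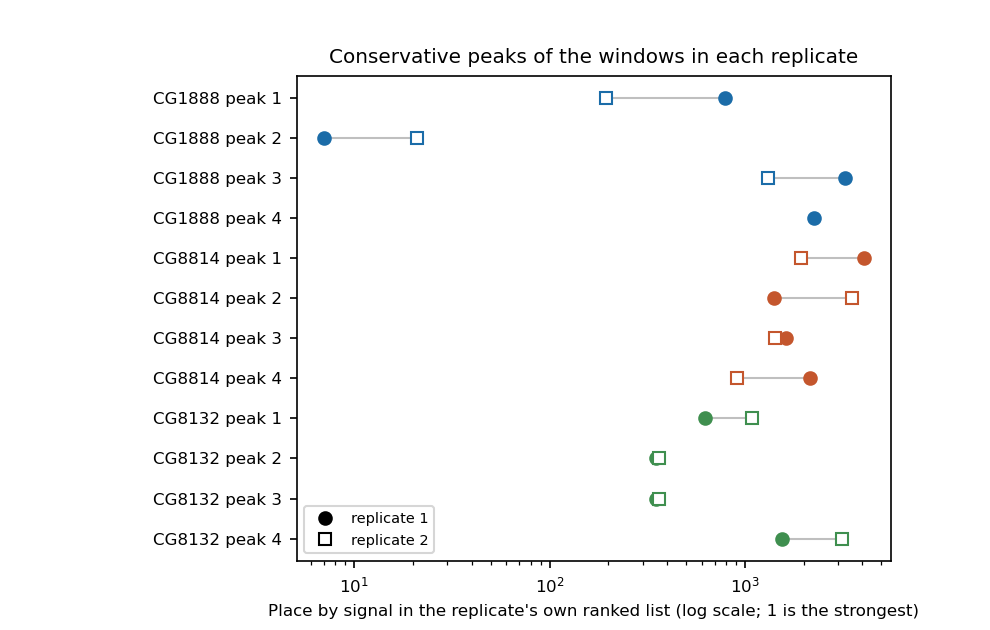
Place by signal of each conservative peak of the windows in the ranked list of replicate 1 (filled circles) and replicate 2 (open squares), on a log scale where place 1 is the strongest, with peaks numbered from left to right in each window. Peak 2 of CG1888, at places 7 and 21, stands far from the others, peak 4 of CG1888 has no place in replicate 2, and peaks 2 and 3 of CG8132 show the same replicate peaks.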

How the data were processed

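The authors deposited 8 peak lists in a narrowPeak layout on dm6, per the labels: a ranked and a thresholded list for each of 2 replicates, and 4 for the series (2 ranked, 1 thresholded, 1 conservative). The signal of a peak is the authors' value, the same in the ranked and thresholded lists of the same source, and the deposited score, which reaches 1000, reflects the irreproducible discovery rate. The ninth deposited column, in the q-value place of the layout, served only as another ranking. Fragments were 200 to 800 bp, per the labels. The names of the aligner and peak caller were not given in the sources used here. Depth is unknown, so no interval on a signal can be given. In the series' ranked lists 20 further columns map to no sample and were not used.

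Peaks on the chromosome arms were joined to Ensembl annotation release 115 (BDGP6.54, without 5889 transposable elements) with Python 3.11.15, NumPy 2.4.6, pandas 2.3.3 and matplotlib 3.10.9. A peak belonged to a window when its summit lay in it, and peaks of different lists were matched by an overlap of at least 1 bp, taking the nearest summit. In the conservative list 83.7% of the intervals are 324 bp wide with the summit at the centre, which limits how precisely a summit is placed. Motifs were searched within 100 bp of each summit and of each TSS. The counting was tested on simulated data.

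The genes and lists were chosen with earlier results of these data known, so no test was run. Named are the 3 genes, all genes overlapping their windows, the genes of the nearest TSSs, and the 5 genes with the most conservative summits per kb. Genes beside the next summits outside the windows and beside the third copy of the 14-base run were named after their values were seen. The replicates are of 1 group, and their own lists serve as the check of leaving out a replicate. The alternatives were other windows, lists, rankings, sets of TSSs and motif windows.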

Additional observations from a re-analysis of the deposited data

How the results depend on the processing

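Some results moved with the choices. With 1000 bp on each side in place of 2 kb, the count of 4 summits became 1 in CG8814 and 2 in CG8132, and in the gene body alone it was 2 in CG1888, 0 in CG8814 and 1 in CG8132. Above the median signal the counts were 2, 0 and 2 in that order. In the series' thresholded list the count was 3 in each gene. In the lists of single replicates the counts were 2 to 4 in CG1888, 1 to 3 in CG8814 and 2 to 3 in CG8132. The place of the strongest peak, as a percentile from the top, ranged over the single replicates' lists from 0.32 to 1.08 in CG1888 (0.422 in the conservative list), from 52.0 to 70.1 in CG8814 (51.8) and from 17.9 to 20.6 in CG8132 (14.8). For CG8132 it was 11.3 in the series' thresholded list and 10.9 by the ninth column, by which it was 0.0469 in CG1888 and 51.7 in CG8814. Merging overlapping intervals took the density of CG8132 from 0.781 to 0.585 per kb. The median spacing in the series' thresholded list was 2100.5 bp in CG8814 (1302 in the conservative list) and 2109 bp in CG8132 (1186), where each lacks 1 peak. In single replicates it was 2019.5 bp in CG8814 from replicate 1 alone, since replicate 2 left a single summit, from 1213 to 2111.5 bp in CG8132 and from 1099 to 2941 bp in CG1888. The share of all genes with at least 2 summits, 4.15%, was 1.43% in gene bodies, 1.87% in genes of at most 2500 bp and 2.79 to 2.88% in single replicates. For at least 3 summits, 1.0%, it was 0.508%, 0.219% and 0.551 to 0.673% in the same order, and 1.6% in the series' thresholded list. With 50 bp around the summit the pairs of summit and motif fell from 8 to 5 in CG8814 and from 10 to 6 in CG8132. The cause of these changes was not tested beyond the smaller windows and lists themselves. In CG8814 and CG8132 the median distances to the nearest TSS kept within the spread of the replicates under the 3 alternatives tried. In CG1888 the standard deviation between the replicates was 558 bp. It compares medians over different peaks, since replicate 2 has no match for the peak 1782 bp upstream. Summits matched in both replicates of CG1888 lay 0 to 32 bp apart. The deviation therefore cannot serve as a limit for CG1888. The median of CG1888 was 1366.5 bp with only the most upstream TSS of each gene, against 1004 bp with all TSSs. No paired analysis was possible because there is 1 group. Without a known depth, a place where a replicate has no peak cannot be told from a place with too few reads.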
